A study of Gallus gallus with 2 samples.

Results

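The genes described here belong to the p53 response: TP53INP1, CDKN1A, GADD45A, GADD45B, MDM2 and MDM4, of which 4 of 6 could be read. They were found through the RefSeq accession of each array probe, matched without its version to gene symbols in a RefSeq table of the chicken assembly GRCg7b. GADD45B and MDM4 matched no probe and were not analysed here, so the account rests on 4 of the 5382 named genes with a probe, which had 5 probes, 4 of them measured on both arrays.

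RNA came from DT40, a chicken B cell line, cultured without tetracycline. Cells of both groups carried a double knockout of H2A.Z, a variant of histone H2A found in a share of nucleosomes, and stably expressed a FLAG-tagged protein in its place. In 1 group this was H2A.Z-R80C, a mutant named in the series title as cancer-associated, and in the other it was H2A.Z.1. Each group had 1 one-colour Agilent array, so there was no replicate and no test, and every difference describes these 2 arrays. Neither the labels nor the design text state whether each culture came from 1 clone.

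p53 is a transcription factor that accumulates after DNA damage and other stress and switches on genes of cell cycle arrest, repair and apoptosis. MDM2, a ubiquitin ligase, and its partner MDM4 restrain p53, and MDM2 is itself a p53 target, which closes a feedback loop. DT40 has been described as lacking functional p53, and several of these target genes can also be induced without it. The roles given below are those known from human and mouse.

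The share of the 43803 non-control spots that the scanner called well above background was 71.5% for R80C and 70.1% for H2A.Z.1, and no spot was saturated. Signals are the scanner's processed intensity in arbitrary units, and differences are log2 R80C minus H2A.Z.1 after each array was scaled on its 75th percentile, which added 0.031 to every log2 difference. The brightness of a probe depends on its sequence, so signals are compared between the arrays and not between genes. Of the B cell markers, all 13 with a probe were measured on both arrays, PAX5 and CD79B among them, with a summed signal of 117741 in R80C cells and 124640 in H2A.Z.1 cells. Probes of other lineages were also read above background, for 6 of 9 T and NK cell genes, 7 of 9 myeloid, 5 of 6 erythroid and thrombocyte and 6 of 10 fibroblast genes. Of all named genes with a probe, 4326 of 5382 were measured on both arrays, so nothing is read from these counts. The summed signals take in every listed gene with a probe, measured or not. For T and NK cell genes they were 36517 in R80C cells and 40304 in H2A.Z.1 cells. For myeloid genes they were 964.1 in R80C cells and 975.8 in H2A.Z.1 cells. They were 954.6 in R80C cells and 905.4 in H2A.Z.1 cells for erythroid and thrombocyte genes, and 383.4 in R80C cells and 224.3 in H2A.Z.1 cells for fibroblast genes. The median difference of the measured markers was -0.03 for B cells, 0.04 for T and NK cells, -0.05 for myeloid cells, 0.09 for erythroid cells and thrombocytes and 0.26 for fibroblasts. Single markers ranged between JCHAIN at -0.48 and EBF1 at 0.29 for B cells, CD3E at -1.54 and CD5 at 0.50 for T and NK cells, and TIMD4 at -0.54 and CEBPA at 0.53 for myeloid cells. They ranged between HBE at -0.11 and HBBA at 0.25 for erythroid cells and thrombocytes, and between COL3A1 at -0.08 and COL1A2 at 0.94 for fibroblasts. The part of these markers in the results below was not tested.

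Transcripts of the 4 members with a probe were detected in both cultures, with differences under 1.5-fold. All 4 genes with a probe were well above background on both arrays, TP53INP1 at 1 of its 2 probes and the others at their only one. Over all named genes, 4326 of 5382 with a probe were measured on both arrays. None of the 4 differed by 1.5-fold, as did 1.94% of those 4326 genes. TP53INP1 was 1.38-fold lower in R80C cells, GADD45A 1.23-fold higher, CDKN1A 1.16-fold higher and MDM2 1.08-fold lower. These differences ran both ways, with a median of 0.05 against 0.01 over all measured genes.

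TP63, a relative of p53 that acts in epithelia, was read by 2 probes. The first gave 41.16 in R80C cells and 40.34 in H2A.Z.1 cells and the second 16.5 in R80C cells and 17.58 in H2A.Z.1 cells, with differences of 0.06 and -0.06 that cancelled in the mean. TP73, the other relative, matched no probe.

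MDM2, the negative regulator of p53, had a signal of 509.9 in R80C cells and 563.3 in H2A.Z.1 cells. The R80C array was the lower one, with a log2 difference of -0.11. Of the 4326 measured genes, 32.9% lay at least as far from 0, so the value of MDM2 was an ordinary one on these arrays. Its raw signal was 18.3 times the local background in R80C cells and 20.0 times in H2A.Z.1 cells.

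CDKN1A encodes p21, an inhibitor of cyclin-dependent kinases and the best known p53 target of cell cycle arrest. Its only probe was dim, with 29.64 in R80C cells and 26.1 in H2A.Z.1 cells. Both values lay above the lowest signal that the scanner called well above background, 5.81 for R80C and 6.95 for H2A.Z.1. They also lay above the highest of 153 negative control spots, 13.4 for R80C and 4.87 for H2A.Z.1. The scanner called 1 of these control spots well above background for R80C and 0 for H2A.Z.1. The raw spot was 2.05 times its local background in R80C cells and 1.9 times in H2A.Z.1 cells. The difference was 0.21, with R80C higher, and 0.06 after normexp background correction with an offset of 50 and quantile normalization. An offset added to every signal draws the differences of dim probes towards 0. Among the 1082 genes of the dimmest of 4 brightness classes of nearly equal size, 34.3% lay at least as far from 0. Over all measured genes this was 13.5%.

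CDKN1B encodes p27, a related inhibitor that is not a classical p53 target, and it was read by 4 probes. The brightest gave 661.6 in R80C cells and 903.5 in H2A.Z.1 cells, and the next gave 424.7 in R80C cells and 511.9 in H2A.Z.1 cells. The third gave 310.5 in R80C cells and 418.1 in H2A.Z.1 cells, and the last 294.7 in R80C cells and 369.0 in H2A.Z.1 cells. All 4 probes were lower in R80C cells, with differences between -0.42 and -0.24 and a mean of -0.34, or 1.26-fold. Of all measured genes, 6.52% lay at least as far from 0. CDKN1C, the other member of this inhibitor family, matched no probe.

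**Figure D1:**
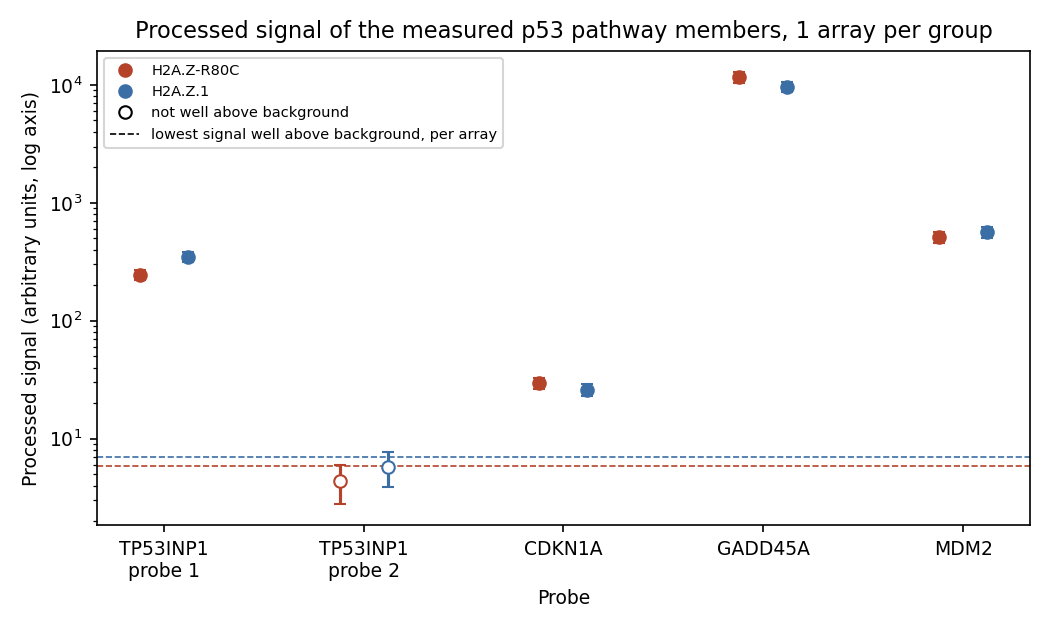
Processed signal (arbitrary units, log axis) of the 5 probes of TP53INP1, CDKN1A, GADD45A and MDM2, with R80C left of H2A.Z.1 in each pair, 1 array per group. Bars are the scanner's own error estimate for the spot, open points were not well above background, and dashed lines mark the lowest signal well above background, 5.81 for R80C and 6.95 for H2A.Z.1; TP53INP1 was read by 1 of its 2 probes, and GADD45A gave 11637 in R80C cells and 9691 in H2A.Z.1 cells.

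GADD45A is a stress protein that binds PCNA and CDK1 and activates the p38 kinase pathway, and it is induced by p53 and by other stress factors. Its probe gave 11637 ± 1164 in R80C cells and 9691 ± 969 in H2A.Z.1 cells, where the error is the scanner's estimate for the spot and covers neither culture nor labelling. R80C was the higher array, by 0.29 on the log2 scale. Bright probes varied less between the arrays than dim ones: in the brightest class of 1082 genes the 5th and 95th percentiles of the difference were -0.10 and 0.15, against -0.54 and 0.41 in the dimmest. GADD45A lay outside that range, and 9 of 1082 genes of its class, itself included, were at least as far from 0. Over all measured genes 8.37% were at least as far. The difference was 1.44 times the scanner's error estimate of 0.204 for it.

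GADD45G, a gene of the same family, was read by 2 probes. They gave 558.8 and 170.3 in R80C cells, against 505.0 and 154.2 in H2A.Z.1 cells. Both were higher in R80C cells, by 0.18 and 0.17, and 18.3% of all measured genes lay at least as far from 0. The RefSeq table lists GADD45B as a synonym of GADD45G, so these values were kept under GADD45G and not taken for the member GADD45B.

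TP53INP1 is a stress protein that takes part in p53-dependent cell death and in autophagy, and it stood farthest from 0 among the members. Its brighter probe gave 246.7 ± 24.7 in R80C cells and 349.0 ± 34.9 in H2A.Z.1 cells (± the scanner's estimate for the spot). R80C was the lower array, with a log2 difference of -0.47, or 2.3 times the scanner's error estimate for the difference. The other probe gave 4.362 in R80C cells and 5.759 in H2A.Z.1 cells, not well above background on either array, and so gives no fold. Of all measured genes 3.26% lay at least as far from 0, and 27 of 1081 in the same brightness class. The value rests on 1 spot per array, as do those of the other members.

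**Figure D2:**
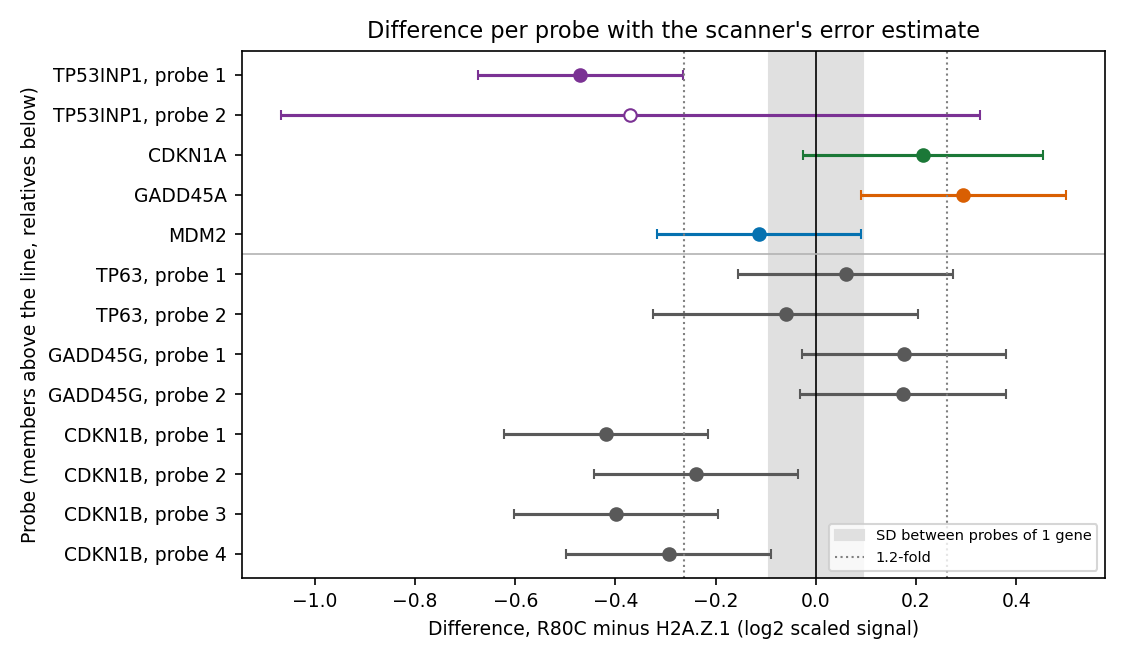
Difference per probe (R80C minus H2A.Z.1, log2 of the scaled signal) for the members above the line and their relatives below it, with the scanner's error estimate as bars; the open point was not well above background. The 4 CDKN1B probes lie on the lower side, between -0.42 and -0.24, and both GADD45G probes lie at 0.17 to 0.18; the grey band is the SD between probes of 1 gene (0.094) and the dotted lines mark 1.2-fold.

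The scatter between the arrays gives a scale for these values. Among 40 probes printed at least 5 times, the difference had a standard deviation (SD) of 0.053 between spots, and among 2776 genes with several measured probes an SD of 0.094 between probes of 1 gene. The differences of TP53INP1, GADD45A and CDKN1A were more than 2 times the SD between probes, and that of MDM2 was close to it in size. This SD pools probes of all brightness, and in the dim class of CDKN1A 34.3% of genes lay at least as far from 0. Set against the scanner's error estimate for each difference, the differences were 2.3 times it for TP53INP1, 1.44 for GADD45A, 0.89 for CDKN1A and 0.55 for MDM2. That estimate was the same for TP53INP1, GADD45A and MDM2, 0.204, so their ratios only restate the size of the difference. For CDKN1A it was 0.239. None of these measures holds the spread between cultures, which 1 array per group cannot give. Past 1.2-fold lay 2 of 4 measured members, GADD45A upward and TP53INP1 downward, where 10.1% of all measured genes did (4.07% higher and 5.99% lower in R80C cells). Of the genes past this limit 40.5% were thus higher in R80C cells, and 50.8% with scaling on the array median. After normexp with quantile normalization GADD45A stood at 0.23, under the limit, and TP53INP1 at -0.36. The member list was drawn up with these values known, so nothing is read from that count. The same holds for the shares of genes at least as far from 0 as GADD45A or TP53INP1.

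**Figure D3:**
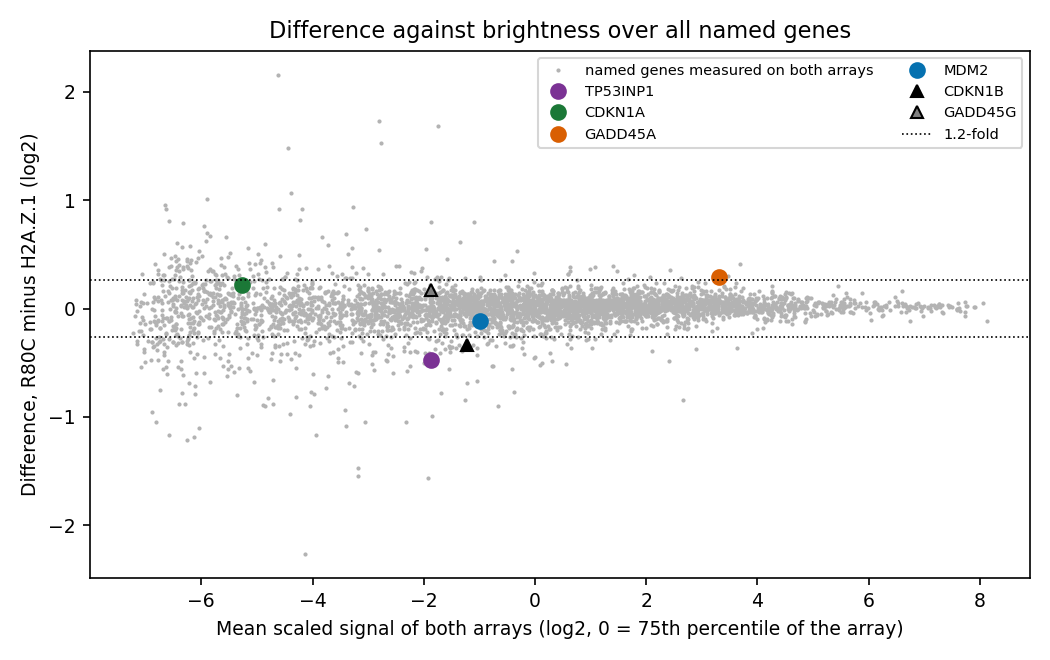
Difference (R80C minus H2A.Z.1, log2) against the mean scaled signal of both arrays (log2, 0 at the 75th percentile of the array) for the 4326 named genes measured on both arrays, with the 4 measured members and 2 relatives marked. GADD45A (0.29) lies at the upper edge of a narrow cloud of bright genes, CDKN1A (0.21) within the wide cloud of dim ones, and TP53INP1 (-0.47) at the lower edge.

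The wider pathway was described by 7 gene lists, which held 212 symbols, of which 91 had a probe and 85 were measured on both arrays. Over all named genes this was 4326 of 5382 with a probe. None of the 85 was 1.5-fold different, where 1.94% of all measured genes were, so nothing is read from this count. Past 1.2-fold lay 6 of 85 (7.06%, against 10.1% of all measured genes), 4 of them higher in R80C cells and 2 lower. After normexp with quantile normalization 0 of 85 were higher and 2 lower, where 3.4% of all measured genes passed the limit in either direction. The median was 0.01, as over all measured genes, and 71.8% of the 85 lay within the SD between probes of 1 gene, against 59.9% of all. These shares were not matched for brightness, and few of the 85 were in the dimmest class. Of that class 27.1% of genes passed 1.2-fold, against 1.02% of the brightest, so nothing is read from the lower shares of the lists. The 6 past 1.2-fold were LITAF, THBS1, GADD45A and CCND1 on the higher side and TP53INP1 and CDKN1B on the lower side. After normexp with quantile normalization the 4 higher ones stayed above 0. There LITAF stood at 0.26, just under 1.2-fold, THBS1 at 0.12, GADD45A at 0.23 and CCND1 at 0.23. CCND1 (1.21-fold) and GADD45A (1.23-fold) were just past this limit, and CDKN1A (1.16-fold) was just under it.

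Of 12 measured genes of the p53 family and its regulators, 9 lay within the SD between probes of 1 gene. Of all measured genes 59.9% did, and these shares were not matched for brightness, so nothing is read from them. TP53INP1, which this list also holds, was the lowest at -0.47 and the 1 gene of the 12 past 1.2-fold. SIRT1, a deacetylase that acts on p53, was the highest with 517.3 in R80C cells and 480.5 in H2A.Z.1 cells (0.14). CDKN2A, the locus of the MDM2 inhibitor ARF, had 26134 in R80C cells and 28024 in H2A.Z.1 cells (-0.07), while its neighbour family member CDKN2B was not well above background on either array. All 14 measured damage kinase and checkpoint genes lay within 1.2-fold, with a median of -0.02. Of all measured genes only 10.1% lay past 1.2-fold, so nothing is read from this count. NBN, a subunit of the complex that recruits the kinase ATM to breaks, was the lowest at -0.20 (637.1 in R80C cells and 748.3 in H2A.Z.1 cells). After normexp with quantile normalization NBN stood at -0.10. RAD17, the loader of the checkpoint clamp, was the highest at 0.10. The kinase genes ATM and CHEK1 both stood at 0.02, over 4 and 3 probes, and CHEK2 at -0.07.

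Among p53 targets of cell cycle arrest, 7 genes were measured, with a median of 0.01. BTG1, an antiproliferative gene, was the lowest at -0.13 over 2 probes, and GADD45A the highest. SFN, an inhibitor of mitotic entry, was not well above background on either array. The 10 measured targets of apoptosis and death receptors had a median of 0.02 and held the widest range, between TP53INP1 at -0.47 and LITAF at 0.36. LITAF, also known as a p53-induced gene, had a mean signal over its 2 probes of 7901 in R80C cells and 6426 in H2A.Z.1 cells, and its probes stood at 0.31 and 0.41. The death receptor gene TNFRSF10B had 48.82 in R80C cells and 44.28 in H2A.Z.1 cells (0.17) at 1 dim probe. FAS was not well above background on either array.

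The 12 measured targets of repair, metabolism and feedback had a median of 0.00. THBS1, a secreted inhibitor of vessel growth, was the highest at 0.34 from 1 dim probe with 20.11 in R80C cells and 16.19 in H2A.Z.1 cells. Its other probes were not well above background, and with all its probes averaged the difference was -0.19. GPX1, a peroxide-reducing enzyme, stood at 0.21 with 49293 in R80C cells and 43631 in H2A.Z.1 cells. DDB2, a damage sensor of excision repair and a dim gene, stood at 0.08, with probes at -0.03 and 0.18. PCNA, the replication clamp that p21 and GADD45A bind, stood at -0.02, and the bypass polymerase gene POLH at 0.01. ACTA2, KITLG and POLK of this list were not well above background on either array.

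In the list of cyclins, kinases and pocket proteins, 19 of 23 measured genes lay within the SD between probes of 1 gene. Of all measured genes 59.9% did, and these shares were not matched for brightness. The list also holds genes of other classes, such as CDKN1B, SKP2 and the E2F genes, and p21 does not act on all of them. CCND1, the gene of cyclin D1, was the highest at 0.27, with probes at 0.26 and 0.28 and a mean signal of 3740 in R80C cells and 3170 in H2A.Z.1 cells. CDKN1B was the lowest. CCNE1, the gene of cyclin E1, stood at -0.17, and CDK2, the kinase it activates, at 0.06. Among the 13 measured partners of GADD45 proteins and of TP53INP1, 12 lay within the SD between probes, again beside 59.9% of all measured genes. PRKCD, a kinase that acts with TP53INP1 in cell death, was the highest at 0.06, and the autophagy genes ATG3, ATG5 and ATG7 stood between -0.09 and -0.00.

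**Figure D4:**
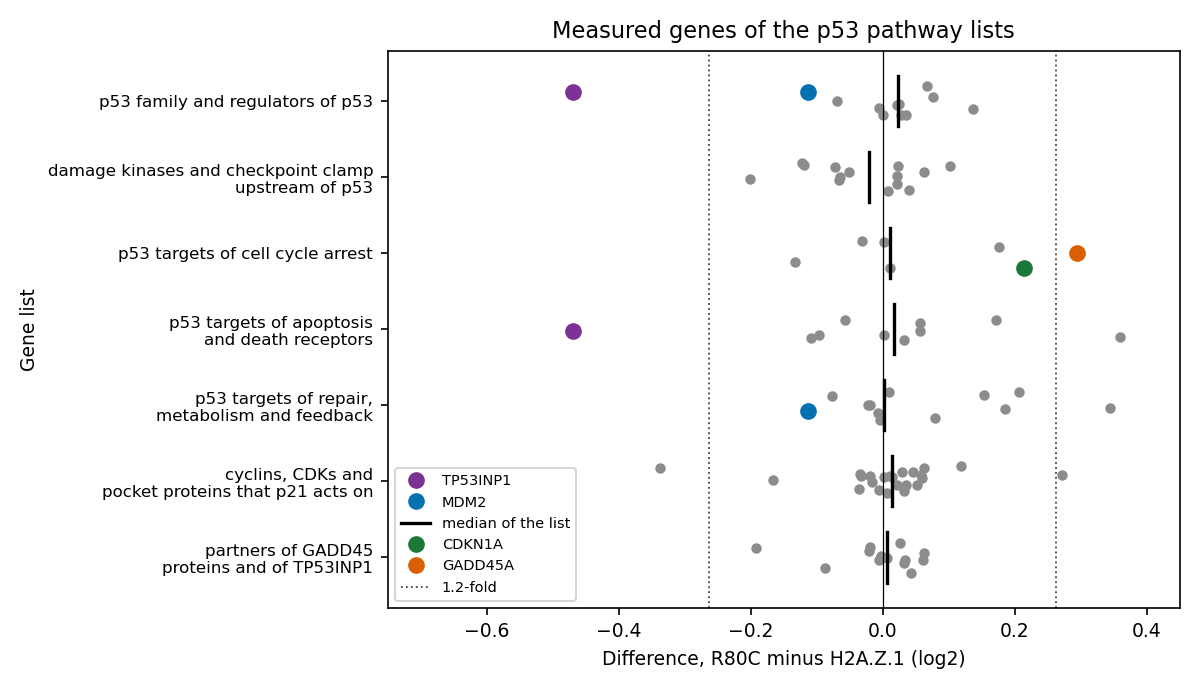
Difference (R80C minus H2A.Z.1, log2) of every measured gene of the 7 pathway lists, 1 point per gene and list with vertical scatter for legibility, the 4 measured members in colour, and the median of each list as a black line. All list medians lie between -0.02 and 0.02, and 6 of 85 genes pass the dotted lines at 1.2-fold.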

How the data were processed

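Total RNA of 2 DT40 cultures was labelled with Cy3 for 1-colour Agilent chicken arrays, per the labels' protocols, with 1 array per group. The deposited intensity values were made with Agilent Feature Extraction 11.5.1.1 (protocol GE1_1105_Oct12, grid build galGal3), background-subtracted and detrended within each array, per the file headers. The deposited series matrix held intensity equal to the processed signal times a near-constant 1.51 (R80C) and 1.50 (H2A.Z.1), on a linear scale and not centred, with column medians of 125.1 and 129.9. The basis of that factor is unknown.

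A probe counted as measured where its spots were well above background on both arrays and not saturated or outlier-flagged (30199 of 43603 probes). Measured probes were averaged per gene. Of 13060 probes with a RefSeq accession, 11935 were named. The table's assembly differs from the grid build, so no coordinates are given. Python 3.11.15, R 4.3.3 and limma 3.58.1 were used, and the calculation was tested on simulated data. The number of arrays limits the precision.

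The members, lists, fold limits and naming rule were chosen with earlier results of these data known. Named were all members with every probe, relatives in the p53, GADD45 and CDKN1 families, the gene farthest from 0 on each side of each list, and any list gene 1.5-fold different. Other list genes were named after their values were seen, and 2 genes that the rule takes are not reported here. With 2 arrays no likeness of pattern between genes could be given. The 10 alternatives changed the scaling, background correction, source of values, filter on dim probes or choice of probe. Normexp with quantile normalization added an offset of 50 to every signal, which draws the differences of dim probes towards 0.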

Additional observations from a re-analysis of the deposited data

How the results depend on the processing

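No paired analysis was possible because each group had 1 array. The median of the members lay between 0.01 and 0.09 under the 10 alternatives. The count of members past 1.2-fold was 2 under 9 alternatives and 1 after normexp with quantile normalization, where GADD45A stood at 0.23 and TP53INP1 at -0.36. The count of pathway genes past 1.2-fold, 6 in the text, was 2 after normexp with quantile normalization and between 5 and 8 otherwise. Over all named genes the count past 1.2-fold was 435 in the text, 147 after normexp with quantile normalization, 923 with no filter on dim probes and 791 under the lenient detection flag. Of the genes past 1.2-fold, 40.5% were higher in R80C cells in the text and 50.8% with scaling on the array median. Across the alternatives TP53INP1 lay between -0.49 and -0.36, CDKN1A between 0.06 and 0.25, GADD45A between 0.23 and 0.33, MDM2 between -0.13 and -0.05 and CDKN1B between -0.42 and -0.30. THBS1, at 0.34 in the text, was -0.19 with no filter on dim probes, where probes not well above background enter its mean. Of 160 values for 16 genes, 153 moved by less than the SD between probes of 1 gene. Of the list genes given with a value, CDKN1A, THBS1, TP63, TNFRSF10B and DDB2 were in the dimmest brightness class.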
